A study of Mus musculus with 10 samples.

Results

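The Angptl4 and Lpl axis and the fatty acid uptake genes downstream of it were examined in RNA sequencing of mouse hearts. The group holds 10 genes of the 24888 in the deposited table: Angptl4, Lpl, Gpihbp1, Lmf1, Vldlr, Cd36, Slc27a1, Fabp3, Fabp4 and Fabp5. They were taken by gene name, and the list was selected on known roles with the fold changes between the groups already in view, that of Angptl4 above all. The differences between the groups given below are therefore descriptions of these genes, and no p-value is printed for Angptl4. Where Angptl4 is counted among the genes called lower, or drawn as such, that too is a description. All 10 genes passed the filter on low values, which asked for at least 10 scaled reads in at least 5 libraries.

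SPOP, the substrate adaptor of a cullin ubiquitin ligase, was overexpressed in the heart with the αMHC-Cre system, in which the promoter of a cardiomyocyte myosin gene directs Cre (SPOP_CKI, genotype CKI, 5 libraries). Controls, titled wild type but with the genotype Myh6Cre, carried the Cre transgene alone (Cre_control, 5 libraries). Both groups were labelled male, 8 to 10 weeks old and under sham conditions, and poly(A) RNA of heart tissue was sequenced. The Cre transgene was thus common to both groups, and the labels do not state the allele that SPOP is expressed from, nor whether controls were littermates.

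Depth was 15316293 to 17114869 reads per library. Spop stood at 25308 to 40631 scaled reads in SPOP_CKI and at 3078 to 3726 in Cre_control, as the labels require. The female transcript Xist, however, was at 4491 to 6578 in 3 libraries labelled male (SPOP_CKI 1, SPOP_CKI 3 and Cre_control 5) and at 5.31 or less in the other 7. Library SPOP_CKI 3 also had reads for 13167 genes, against 18531 to 20806 in the other 9, and a median correlation of 0.819 with its group, against 0.914 to 0.928 for the other SPOP_CKI libraries. Leaving out 1 library moved the number of genes called from 3168 to between 1935 (without Cre_control 1) and 4381 (without SPOP_CKI 3). It was 2109 without Cre_control 2 and 1947 without Cre_control 4.

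The heart takes most of its fatty acids from triglyceride carried in blood lipoproteins. Lipoprotein lipase, encoded by Lpl, is made by cardiomyocytes, matured in the endoplasmic reticulum with the help of Lmf1, and carried across the capillary wall by the endothelial anchor Gpihbp1, where it splits triglyceride. Angptl4, a secreted protein whose gene is a classic target of the fatty acid sensors of the PPAR family, inactivates the enzyme. Released fatty acids enter cells with the help of Cd36 and Slc27a1 and are bound inside by the proteins of the Fabp family, while Vldlr captures whole lipoprotein particles.

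Transcripts of 9 of the 10 genes were lower in SPOP_CKI hearts, and Lpl itself did not pass the test (limma on log2(value + 1), Benjamini-Hochberg adjusted p under 0.05 over 14212 genes). Over all tested genes, 12.3% were called lower and 10.0% higher. The log2 fold changes ran from −3.98 for Angptl4 to −0.51 for Lpl, with a median of −1.52 over the 10 genes and −0.11 over all genes tested. All 10 were negative, so none was higher at an unadjusted p either, and edgeR and DESeq2 also called 0 higher. In 8 genes all SPOP_CKI libraries lay below all controls, a pattern seen in 12.3% of tested genes, and the exceptions were Lpl and Cd36. On recovered reads edgeR called 8 of the 10 lower, where 10.5% of tested genes were lower. The authors' deposited table gives 8 of them an adjusted p under 0.05 and a negative fold change, where 8.08% of genes with a p-value do. Because the list was drawn up with this comparison known, nothing is read from these shares. RNA of bulk tissue cannot tell fewer cells of a type from less RNA per cell.

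**Figure D1:**
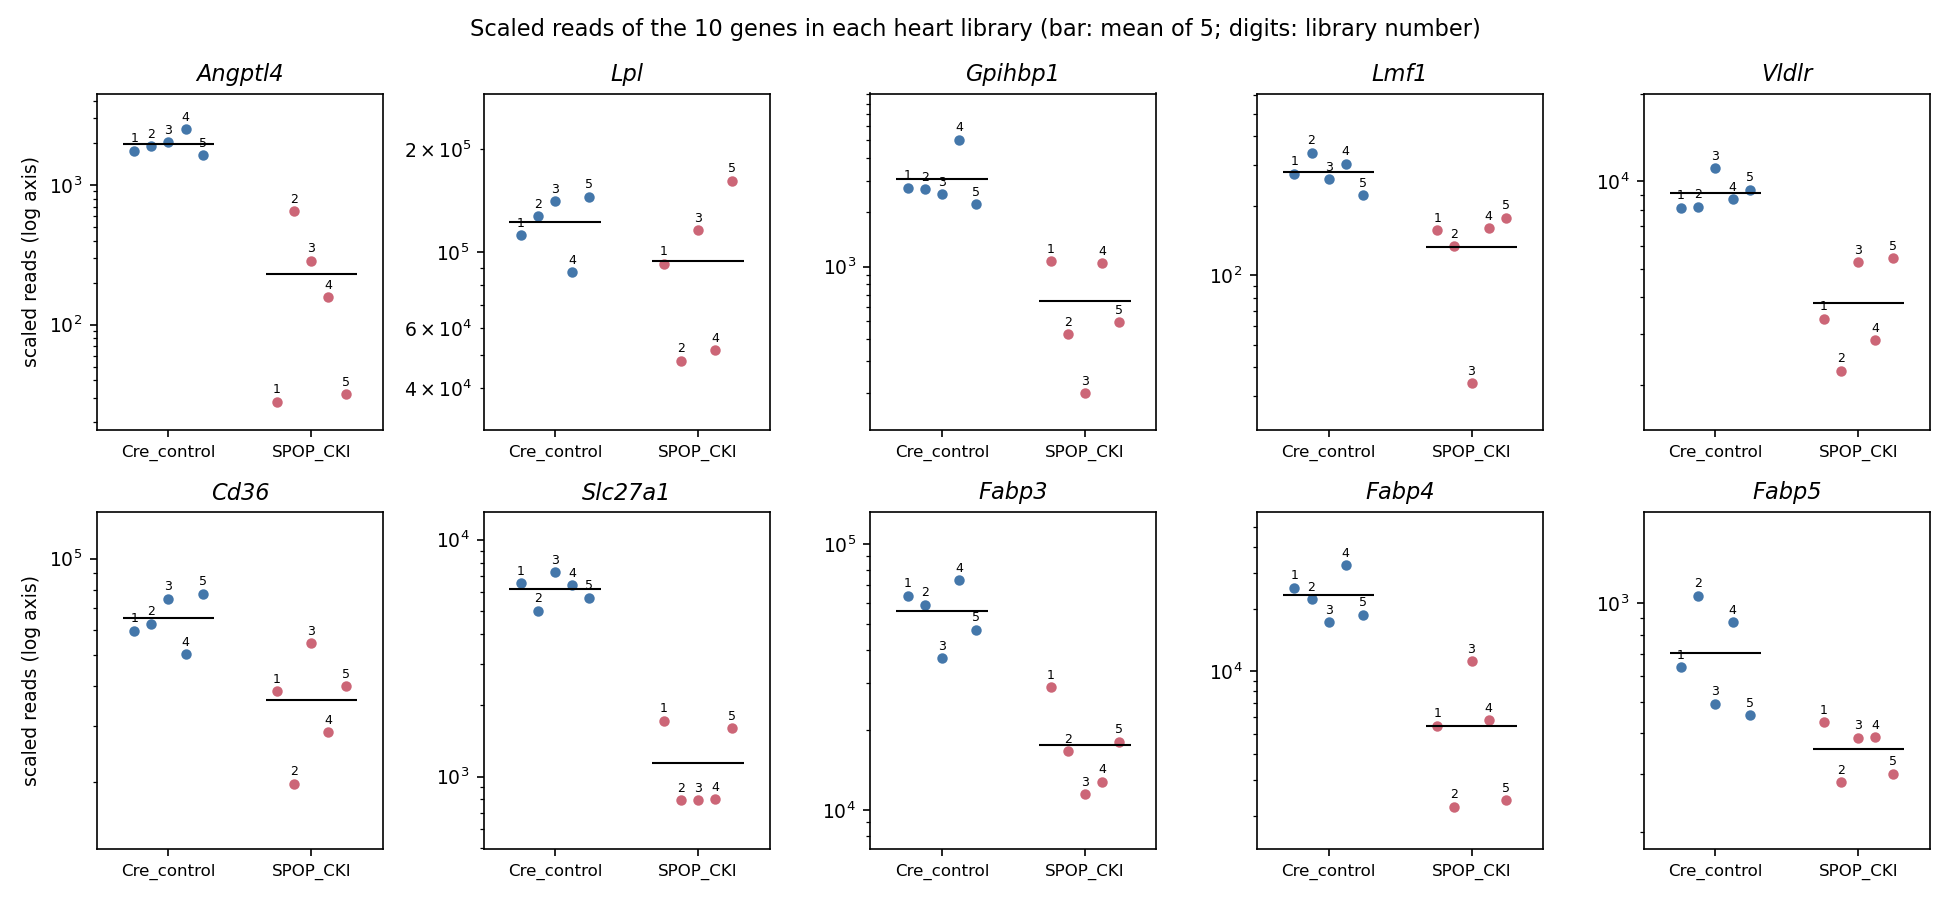
Scaled reads (log axis) of each of the 10 genes in the 5 Cre_control and 5 SPOP_CKI libraries; each point is a library, the digit its number and the bar the mean. The groups are apart in 8 panels and overlap for Lpl and Cd36, and Angptl4 shows the widest spread among SPOP_CKI hearts, from 28.0 to 648.

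Angptl4 (ENSMUSG00000002289, mm10 chromosome 17, 33773750 to 33781575, minus strand), the inhibitor of the enzyme, had the lowest fold change of the 10. It was at 28.0, 648, 287, 158 and 31.9 scaled reads in SPOP_CKI libraries 1 to 5, and at 1764, 1906, 2023, 2515 and 1630 in Cre_control libraries 1 to 5. The highest SPOP_CKI library thus lay 2.51-fold below the lowest control. Means were 231 ± 257 and 1968 ± 340 (SD, n = 5 each). On the log2 scale this gave a fold change of −3.98 (SE 0.76), which is 15.8-fold lower, while the ratio of the group means was 8.53. The gap between these figures comes from the spread within SPOP_CKI, where the log scale gives libraries 1 and 5 more weight. Without SPOP_CKI 2 the log2 fold change was −4.58, and by edgeR and DESeq2 on recovered reads it was −3.08 and −3.09. Without the 3 libraries with Xist reads it was −3.76.

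The authors' deposited table lists Angptl4 with a log2 fold change of −3.09, no p-value and an adjusted p of 1. The same entry, an adjusted p of 1 with no p-value, is found for 221 genes there. A filter of that table on its adjusted p would therefore drop Angptl4. Of the 10 genes it alone had a Cook's distance, a measure of how far a single library pulls the fit, above the level at which DESeq2 can withhold a p-value. That value was 9.06 in SPOP_CKI 2, the library with 648 scaled reads, against a limit of 8.65, and the next highest of the 10 genes was 1.34 for Lmf1 in SPOP_CKI 3. DESeq2 1.42.0 on recovered reads, with its filter on, nevertheless returned a p-value for Angptl4. Whether that rule set the authors' entry was not tested.

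Variation among SPOP_CKI hearts was wider than among controls for 9 of the 10 genes. This was not particular to them, since SPOP_CKI libraries were less alike over all tested genes. The median correlation of a library with its group was 0.819 to 0.928 in SPOP_CKI and 0.965 to 0.973 in Cre_control. The share of all genes with a wider spread was not counted. For Angptl4 the coefficient of variation was 111% in SPOP_CKI and 17.3% in Cre_control, and the highest SPOP_CKI library was 23.2-fold above the lowest. Fabp5 was the exception, at 17.7% and 36.4%. Library SPOP_CKI 2, in which Angptl4 was highest, was the lowest SPOP_CKI library for 6 of the other 9 genes (Lpl, Vldlr, Cd36, Slc27a1, Fabp4 and Fabp5). SPOP_CKI 3 was the lowest for the other 3 (Gpihbp1, Lmf1 and Fabp3).

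Lpl (ENSMUSG00000015568, chromosome 8, 68880491 to 68907448, plus strand) took 0.54 to 0.81% of all reads in Cre_control and 0.34 to 0.865% in SPOP_CKI. It stood at 92513, 48089, 116004, 51674 and 162035 scaled reads in SPOP_CKI libraries 1 to 5, and at 111963, 127390, 141070, 87503 and 145269 in controls 1 to 5. SPOP_CKI 5 was above every control, and SPOP_CKI 2 and 4 were below every control. The mean of 94063 ± 47470 against 122640 ± 23570 gave a log2 fold change of −0.51 (SE 0.34, limma adjusted p = 0.291). Its 95% interval ran from −1.26 to 0.23, so changes from 2.39-fold lower to a small rise were compatible with these libraries. With limma array weights, which count libraries far from their group for less, Lpl was lower (log2 fold change −0.86, adjusted p = 0.0193), and after quantile normalization its sign turned (0.10, adjusted p = 0.833).

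Set against the enzyme, Angptl4 transcript was scarcer in most SPOP_CKI hearts. Per kilobase of the principal transcript, Angptl4 amounted to 1.40 to 3.58% of Lpl in Cre_control (mean 2.12 ± 0.844, SD, n = 5). In SPOP_CKI libraries 1 to 5 it was 0.0377, 1.68, 0.308, 0.38 and 0.0245%. SPOP_CKI 2 lay inside the control range and the other 4 below it. No test was made of this ratio, since both genes were chosen with their values known.

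Gpihbp1 (ENSMUSG00000022579, chromosome 15, 75596628 to 75599481, plus strand), the capillary anchor of the enzyme, was lower in every SPOP_CKI heart. It stood at 1074, 423, 199, 1051 and 495 scaled reads in SPOP_CKI libraries 1 to 5 and at 2740, 2681, 2515, 5055 and 2215 in controls 1 to 5. SPOP_CKI 3 was lowest and Cre_control 4 stood well above the other controls. The fold change was 5.34 (log2 −2.42, SE 0.43, limma adjusted p = 0.00369), and it was −2.22 on the log2 scale without Cre_control 4. Relative to Lpl per kilobase, Gpihbp1 was 7.61 to 28.8% in controls and 0.855 to 10.1% in SPOP_CKI. SPOP_CKI 4 was the library that reached into the control range.

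Lmf1 (ENSMUSG00000002279, chromosome 17, 25579174 to 25662826), the maturation factor, was the scarcest of the 10 genes in controls. Its scaled reads were 156, 134, 34.2, 159 and 177 in SPOP_CKI libraries 1 to 5 and 275, 339, 260, 304 and 222 in controls 1 to 5. SPOP_CKI 3 was far below the others, and the log2 fold change of −1.26 (SE 0.40, limma adjusted p = 0.0424) was −0.83 without it (adjusted p = 0.00434). The call was lost without any single control library, without SPOP_CKI 2 or 4 (adjusted p up to 0.0954 over these), and with edgeR (adjusted p = 0.0503). Vldlr (ENSMUSG00000024924, chromosome 19, 27216484 to 27254231), the lipoprotein receptor, fell 2.50-fold (log2 fold change −1.32, SE 0.25, limma adjusted p = 0.0046). Its SPOP_CKI libraries 1 to 5 had 3377, 2238, 5271, 2845 and 5448 scaled reads, and controls lay between 8129 and 11120. Among SPOP_CKI hearts Vldlr was highest in libraries 3 and 5, which were also the highest for Lpl and Cd36.

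**Figure D2:**
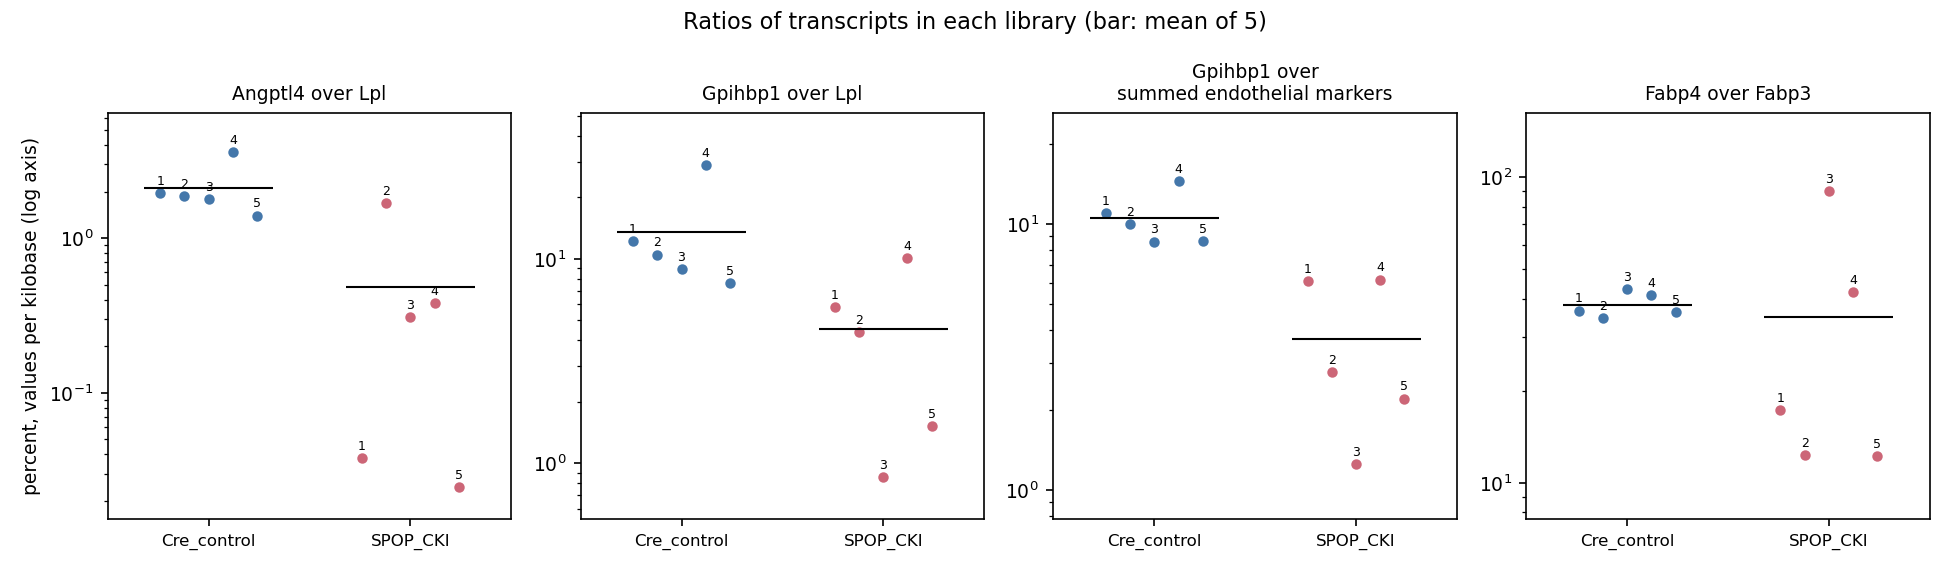
Per-kilobase ratios in percent (log axis) of Angptl4 to Lpl, Gpihbp1 to Lpl, Gpihbp1 to the sum of 12 endothelial markers, and Fabp4 to Fabp3; points are libraries with their number, bars are means of 5. The groups are apart only for Gpihbp1 over endothelial markers (8.59 to 14.5% against 1.25 to 6.17%). That ratio uses deposited gene lengths, and the others use the principal transcript.

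RefSeq sequence around annotated transcript starts (GRCm38.p6, 250 bases before and 50 after) was at hand for 5 of the 10 genes, in 8 windows: Fabp3, Cd36, Slc27a1 (3 starts), Lmf1 and Vldlr (2 starts). The windows were searched on both strands for the nuclear receptor half-site AGGTCA, the PPAR-type direct repeat AGGNCANAGGNCA, which can itself contain the half-site, the E-box CACGTG and the TATA box TATAAA. In all 32851 windows of the table, 16.3% hold the half-site, 0.381% the direct repeat, 7.15% the E-box and 13.6% the TATA box. The windows shown are the 2 that hold a match, marked in capitals, and that of Fabp3, which holds none. Fabp3 had the highest level of the 10 genes in controls per kilobase of the principal transcript. In the Cd36 window (chr5:17835847-17836146, minus strand) the half-site lies on the reverse strand and starts at position −228 from a RefSeq start at 17835896. In the Slc27a1 window (chr8:71570344-71570643, plus strand) the E-box starts at position −202 from a RefSeq start at 71570594. The Fabp3 window is chr4:130308488-130308787, plus strand. These 3 starts lie inside the gene spans given here and are not their outermost starts. A match describes the letters only and shows no binding, and the data hold no measurement of binding.
Fabp3: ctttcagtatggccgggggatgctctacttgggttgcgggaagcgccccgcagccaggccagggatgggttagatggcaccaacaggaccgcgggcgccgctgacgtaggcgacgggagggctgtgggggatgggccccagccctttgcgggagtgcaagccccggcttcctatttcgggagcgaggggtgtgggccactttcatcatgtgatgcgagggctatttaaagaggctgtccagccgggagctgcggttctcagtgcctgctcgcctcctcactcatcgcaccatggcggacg
Cd36: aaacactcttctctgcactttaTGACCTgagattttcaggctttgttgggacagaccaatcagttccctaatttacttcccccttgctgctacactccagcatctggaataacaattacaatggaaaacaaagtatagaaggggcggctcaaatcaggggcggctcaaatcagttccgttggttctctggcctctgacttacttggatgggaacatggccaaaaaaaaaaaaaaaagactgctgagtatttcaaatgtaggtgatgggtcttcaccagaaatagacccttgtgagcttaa
Slc27a1: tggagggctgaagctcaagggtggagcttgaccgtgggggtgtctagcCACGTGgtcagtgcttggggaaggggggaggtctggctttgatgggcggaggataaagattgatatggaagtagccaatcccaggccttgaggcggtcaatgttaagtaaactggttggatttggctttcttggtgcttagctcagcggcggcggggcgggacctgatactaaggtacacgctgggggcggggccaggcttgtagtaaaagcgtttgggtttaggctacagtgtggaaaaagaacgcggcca

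Among the membrane proteins of fatty acid entry, both Slc27a1 and Cd36 were called lower. Slc27a1 (ENSMUSG00000031808, chromosome 8, 71568882 to 71587302), a transport protein that also activates fatty acids, was at 1722, 792, 796, 800 and 1595 scaled reads in SPOP_CKI libraries 1 to 5 and at 6573, 5021, 7276, 6424 and 5690 in controls 1 to 5. The lowest control was 2.92-fold above the highest SPOP_CKI library. Slc27a1 was thus 5.76-fold lower (log2 −2.52 with SE 0.25, adjusted p = 0.000258 by limma), and the value ran from −2.70 to −2.42 on the log2 scale over all 21 other settings. Cd36 (ENSMUSG00000002944, chromosome 5, 17781690 to 17888801, minus strand), the fatty acid translocase of endothelium and cardiomyocytes, was at 38403, 19794, 54288, 28683 and 39986 in SPOP_CKI libraries 1 to 5. Controls 1 to 5 had 59491, 62637, 74891, 50280 and 77701, so that SPOP_CKI 3 overlapped Cre_control 4. The 1.87-fold decrease of Cd36 (log2 −0.91, SE 0.27, limma adjusted p = 0.033) lost its call without Cre_control 1, 2, 3 or 5, without SPOP_CKI 4 (adjusted p up to 0.0759 over these), and with quantile normalization (log2 −0.48, adjusted p = 0.211). The difference in fold change between Slc27a1 and Cd36 was not tested.

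The fatty acid binding proteins fell by different amounts. Fabp3 (ENSMUSG00000028773, chromosome 4, 130308595 to 130315463), the form of cardiac and skeletal muscle, was at 29036, 16648, 11457, 12783 and 18066 scaled reads in SPOP_CKI libraries 1 to 5 and at 63809, 59088, 37152, 73159 and 47637 in controls 1 to 5. SPOP_CKI 1 was the highest of its group and still below Cre_control 3, the lowest control. The fold was 3.28 (log2 −1.72, SE 0.28, limma adjusted p = 0.00227). Of its transcript windows of 100 bases, 21.7% are also found in the pseudogene Fabp3-ps1, which was at 55.2 to 119 scaled reads in SPOP_CKI and 134 to 305 in controls. Reads could be split between the 2, and these amounts are small beside those of Fabp3.

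Fabp4 (ENSMUSG00000062515, chromosome 3, 10204088 to 10208576, minus strand), a form of fat cells, macrophages and capillary endothelium, was at 5461, 2226, 11210, 5826 and 2391 in SPOP_CKI libraries 1 to 5. Controls 1 to 5 had 25380, 22268, 17335, 32663 and 18774, all above the highest SPOP_CKI library, number 3. The fold was 5.01 (log2 −2.32, SE 0.41, limma adjusted p = 0.00338), and leaving out SPOP_CKI 3 gave −2.65, leaving out the 3 libraries with Xist reads −2.92. Fabp5 (ENSMUSG00000027533, chromosome 3, 10012548 to 10016607), the form first described in skin, ranged from 284 to 432 in SPOP_CKI and from 456 to 1055 in controls. Its 1.88-fold decrease (log2 −0.91, SE 0.24, limma adjusted p = 0.0216) was no longer called without Cre_control 2 or 4 (adjusted p = 0.0517 and 0.0611). Of its windows, 2.19% are shared with Gm6166 and Gm14328. The other 8 genes share no such window with another annotated gene.

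The balance of Fabp transcripts also shifted from heart to heart. Per kilobase of the principal transcript, Fabp4 was 34.6 to 42.9% of Fabp3 in the 5 controls. In SPOP_CKI libraries 1 to 5 it was 17.3, 12.3, 89.9, 41.9 and 12.2%, so that 3 hearts lay below the control range, 1 within it and SPOP_CKI 3 above it. The group means of 34.7 ± 33.2 and 38.2 ± 3.51% hide that spread.

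**Figure D3:**
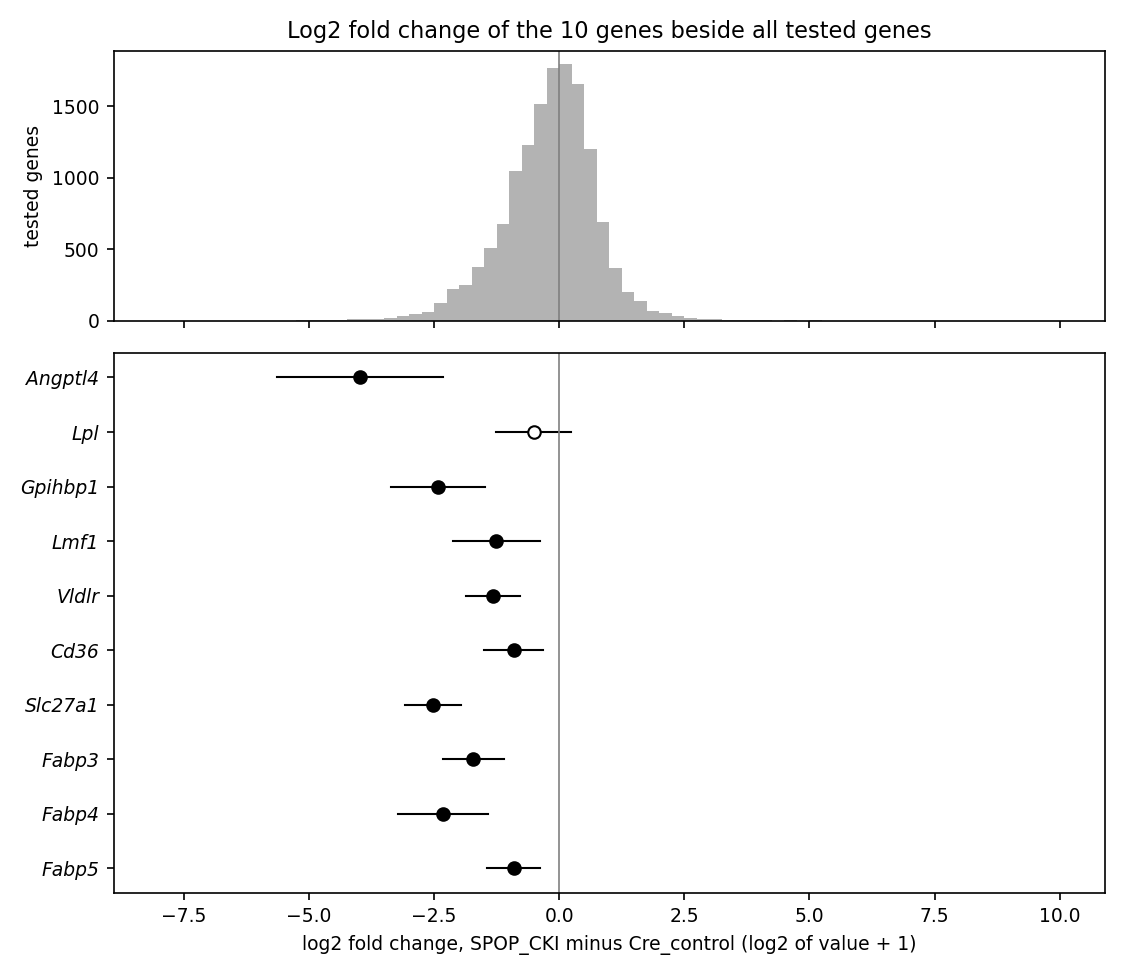
Upper panel, number of the 14212 tested genes by log2 fold change (SPOP_CKI minus Cre_control); lower panel, log2 fold change of each of the 10 genes with its 95% interval, filled where the adjusted p was under 0.05. Angptl4 lies farthest left at −3.98, and the interval of Lpl alone crosses 0.

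Levels were ordered within each group per kilobase of the principal transcript, since the deposited gene lengths cover more than that transcript for some genes (that of Fabp4, 4489 bases, equals its whole span). In Cre_control the order was Fabp3 (68250 ± 17080 scaled reads per kilobase), Lpl (29800), Fabp4 (25990), Cd36 (19120), Gpihbp1 (3686), Slc27a1 (2217), Vldlr (1142), Fabp5 (713), Angptl4 (595) and Lmf1 (151). Lpl exceeded Fabp4 in 3 of 5 controls, Fabp4 exceeded Cd36 in 3, Vldlr exceeded Fabp5 in 4 and Fabp5 exceeded Angptl4 in 3, so these neighbours were not separated. The other neighbours kept their order in 5 of 5. In SPOP_CKI the order was Lpl (22860 ± 11540), Fabp3 (21380), Cd36 (10660), Fabp4 (6052), Gpihbp1 (786), Vldlr (481), Slc27a1 (408), Fabp5 (364), Lmf1 (71.1) and Angptl4 (69.7). There Cd36 exceeded Fabp4, Fabp4 exceeded Gpihbp1 and Fabp5 exceeded Lmf1 in 5 of 5 libraries, and the other neighbours changed places between libraries.

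The rest of the pathway was described by gene lists, drawn up with earlier results of these data known, as counts and medians. Over all tested genes, limma called 12.3% lower and 10.0% higher, and the median log2 fold change was −0.11. Each list below is to be set beside these values. No set test was made, and nothing is read from the counts. Among 17 genes that control lipoprotein lipase, 11 were tested, 2 rose, 1 fell and 8 did not pass, with a median log2 fold change of −0.16 (all genes, −0.11). Sdc4, a heparan sulfate proteoglycan of the cell surface, rose 2.83-fold, from 322 ± 78.8 to 992 ± 409 (limma adjusted p = 0.0142), with SPOP_CKI libraries between 321 and 1382. Pcsk5, a proprotein convertase, rose 1.87-fold (adjusted p = 0.0301), and the Lmf1 paralog Lmf2 fell 1.52-fold (adjusted p = 0.0255). With no filter on low values, Pcsk5 (adjusted p = 0.0578) and Lmf2 (adjusted p = 0.055) were not called. The number lower was 0 without SPOP_CKI 4 or Cre_control 1, 2 or 5, and 1 was higher without SPOP_CKI 2 or 4 or Cre_control 1, 3, 4 or 5. Angptl8, Apoc1, Apoc3, Apoa5 and Lipg were under the filter on low values.

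Among 9 tested lipoprotein receptor genes and their regulators the median log2 fold change was −0.23. Sorl1, a sorting receptor related to the lipoprotein receptors, rose 1.95-fold, from 223 ± 48.7 to 447 ± 131 (limma adjusted p = 0.0163). Mylip, a ubiquitin ligase that acts on lipoprotein receptors, fell 2.17-fold, from 1087 ± 225 to 501 ± 107 (limma adjusted p = 0.00274), and the groups did not overlap. Mylip was at 403 to 665 scaled reads in SPOP_CKI and at 816 to 1429 in Cre_control.

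Of 15 tested genes of fatty acid import and activation beside the members, 2 fell, 1 rose and 12 did not pass (median −0.12). Acsl1, the main acyl-CoA synthetase of heart, fell 2.67-fold, from 18990 ± 2843 to 7519 ± 2791 (limma adjusted p = 0.00541), and the groups did not overlap. Cavin1, a coat protein of caveolae, fell 1.82-fold (adjusted p = 0.0302), and with quantile normalization Cavin1 was not called (adjusted p = 0.0658). Acsl4, a synthetase that prefers arachidonic acid, rose 1.85-fold (adjusted p = 0.0175). Without any one control library 1 gene was lower, and without SPOP_CKI 1, 3 or 5, 2 were higher.

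Among 18 regulators of fatty acid uptake, 6 fell, 1 rose and 11 did not pass (median −0.22). Klf15, a transcription factor of cardiac lipid metabolism, fell from 1234 ± 362 to 295 ± 134 (log2 fold change −2.17, limma adjusted p = 0.00218). Tcf15, which with Meox2 drives fatty acid transport genes in the endothelium of the heart, fell 3.47-fold, from 811 ± 243 to 240 ± 96.1 (adjusted p = 0.00263). Rxra, the shared partner of the PPAR receptors, fell 2.34-fold (adjusted p = 0.0235). Leaving out Cre_control 1 or 4 took the adjusted p of Rxra to 0.056 and 0.0562. Several more were looked at after their values were seen. The partner Meox2 stood at 431 ± 100 against 413 ± 56.4 (adjusted p = 0.873), and the endothelial growth factor gene Vegfb fell (log2 fold change −0.93, adjusted p = 0.0121). Pparg, the PPAR receptor of fat cells, fell from 540 ± 48.7 to 236 ± 22.8 (adjusted p = 0.000525), and Rxrb fell too (log2 fold change −1.06, adjusted p = 0.015). Ppara, the main PPAR receptor of cardiomyocytes, was at 353 ± 233 against 338 ± 78.8 (adjusted p = 0.799). The gene that rose, Hif1a (log2 fold change 0.85, adjusted p = 0.0327), lost its call without SPOP_CKI 4 or Cre_control 1, 2 or 4, and 2 regulators were higher without SPOP_CKI 3.

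Of 18 further PPAR target genes, 16 were lower and the other 2, Acadl and Hilpda, did not pass (median −2.20; all 18 had a negative fold change, and edgeR called 14 lower). Acot1, a cytosolic acyl-CoA thioesterase, and Ucp3, a mitochondrial carrier, had log2 fold changes of −4.61 and −4.36, and Ehhadh, an enzyme of peroxisomal oxidation, of −4.48. Ehhadh had 0 reads in SPOP_CKI 3, and its log2 fold change was −3.27 without that library and −3.56 by edgeR. Without the 3 libraries with Xist reads, that of Acot1 was −5.22. Hilpda, a lipase inhibitor that is also a PPAR target, was at 75.9 ± 50.4 against 77.6 ± 8.6 (limma adjusted p = 0.662). This list is no independent support, because results for several of its genes were known when it was written.

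The patterns nearest to Angptl4 and Lpl over the 10 libraries differed. Among 9844 protein-coding genes with a mean of at least 100, the highest Pearson correlations with Angptl4 on the log2 scale were those of Cited2 (0.977), Gatd1 (0.97), Xrn2 (0.947), Znhit2 (0.946) and Plin2 (0.946). Cited2 encodes a transcriptional coregulator and Plin2 a coat protein of lipid droplets. With each group's mean removed the correlations were 0.795 to 0.916, and the wide spread among SPOP_CKI libraries weighs most in them. Among controls, Cre_control 4 was highest for Angptl4 but not for Cited2 (1094) or Plin2 (2318). Cited2, for example, was at 350, 767, 629, 601 and 443 in SPOP_CKI libraries 1 to 5, lowest like Angptl4 in libraries 1 and 5 and highest in library 2. The highest correlations with Lpl were those of Pde3a (0.969), Corin (0.965), March6 (0.959), Foxn3 (0.952) and Zfp612 (0.95). These 5 genes did not pass the test between the groups, as Lpl did not (limma adjusted p from 0.315 to 0.463). Pde3a, a phosphodiesterase of cardiomyocytes, stood at 2442, 1190, 2992, 1550 and 3767 in SPOP_CKI, the same order of libraries as for Lpl. These are descriptions over 10 libraries that share their scaling, and the genes were picked for their likeness out of many.

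Some markers of the cell types that hold these transcripts moved as well. Beside the counts below, 12.3% of all tested genes were called lower and 10.0% higher. Of 12 endothelial markers 6 were lower and 6 did not pass, and their summed level was 5950 to 8750 scaled reads per kilobase in SPOP_CKI and 9720 to 13600 in controls. Of the 2 markers with the highest level per kilobase, Cdh5 was 1.88-fold lower (limma adjusted p = 0.00408), and Aqp1 did not pass (log2 fold change −0.70, adjusted p = 0.0512). Aqp1 was called lower in 5 other settings, among them DESeq2 (adjusted p = 0.0331) and limma array weights (adjusted p = 0.0312), and not in 16. Log2 fold changes of the 12 ran from −1.68 to 0.24, so the lower sum does not stand for every marker. Emcn, Vwf and Tek, picked with their values in view, had positive fold changes and did not pass (limma adjusted p = 0.291, 0.519 and 0.964). Shares of the summed endothelial markers were taken per kilobase of the deposited gene length. That length is 2554 bases for Gpihbp1 and 4489 for Fabp4, against principal transcripts of 825 and 896. These shares thus cannot be set beside the ratios to Lpl or Fabp3. Gpihbp1 amounted to 1.25 to 6.17% of the summed endothelial markers in SPOP_CKI and to 8.59 to 14.5% in controls, and the groups did not overlap. For Fabp4 the shares were 6.09 to 40.2% and 33.7 to 58.2%, and for Cd36 92.6 to 243% and 103 to 215%. Both overlapped, Fabp4 through SPOP_CKI 3 alone.

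Fat cells also express Lpl, Fabp4, Cd36 and Angptl4. Of 9 adipocyte markers 3 were tested, and Lipe, which muscle also expresses, was lower (5.04-fold, limma adjusted p = 0.000319), while Cidea (1.57-fold, adjusted p = 0.0667) was not called. Adipoq, a defining marker, was at 0 to 18.1 scaled reads in SPOP_CKI and 0.961 to 26.5 in controls, Plin1 at 0 to 11.7 and 0 to 14.9, and Lep at 0 in 8 of 10 libraries. The summed level was 236 to 534 in SPOP_CKI and 589 to 951 in controls, and Lipe and Cidea made up 83.6 to 100% of it in the 10 libraries. Of 9 macrophage markers 3 were higher and 1 lower, and the number higher was 1 without SPOP_CKI 2 or 4 or Cre_control 1, 3, 4 or 5. Their sum was 12800 and 17200 in SPOP_CKI 2 and 4 and 2830 to 4920 in the other 3, against 3520 to 6540 in controls. Lyz2 and C1qb, those with the highest level, did not pass (adjusted p = 0.637 and 0.499).

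Of 9 ventricular cardiomyocyte markers 5 were lower and 1 was higher. Mb, the oxygen store myoglobin, fell 2.49-fold and the actin gene Actc1 rose 1.96-fold (limma adjusted p = 0.00446 and 0.0285), the latter not without SPOP_CKI 1 or 4 or Cre_control 3 or 4. With quantile normalization the log2 fold change of Actc1 was 1.67 instead of 0.97. The summed cardiomyocyte markers were 158000 to 277000 scaled reads per kilobase in SPOP_CKI and 219000 to 310000 in controls. Actc1, which rose, is counted in that sum. It was at 110590 to 222160 scaled reads in SPOP_CKI and 49527 to 111990 in controls. These reads are not divided by its length of 1618 bases, so they give no share of the sum. Since the sum mixes Actc1 with the 5 markers that fell, its overlap does not describe those 5. Of 6 fibroblast markers, Lum rose 2.31-fold (adjusted p = 0.0123), Dcn did not pass (adjusted p = 0.488), and the sum was 4200 to 11400 and 4170 to 4820. The number of fibroblast markers higher was 3 without SPOP_CKI 3 and 2 without SPOP_CKI 1, and 2 adipocyte markers were lower without SPOP_CKI 1 or Cre_control 3. The part of all these markers in the differences of the 10 genes was not tested.

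**Figure D4:**
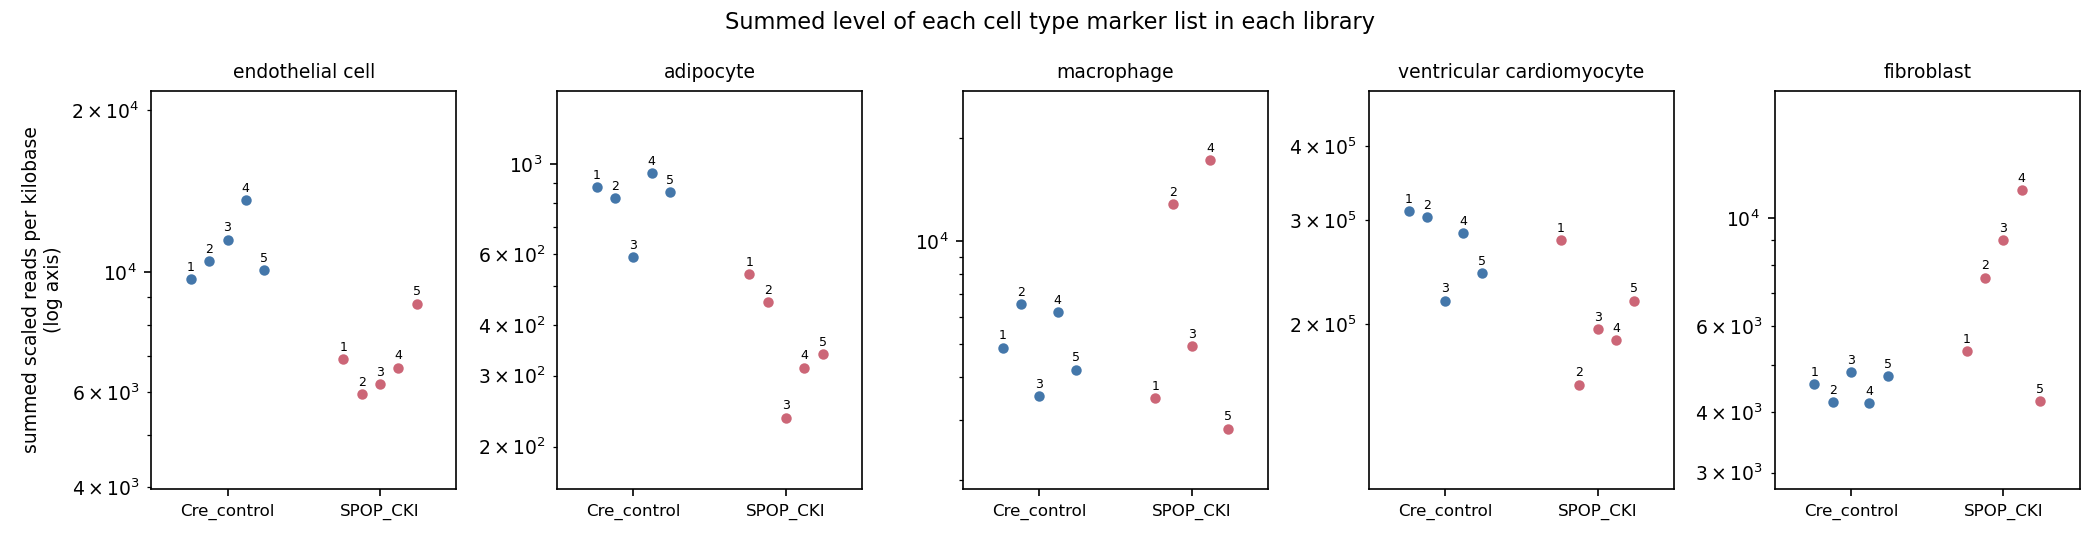
Summed scaled reads per kilobase (log axis) of 5 lists of cell type markers in each library, numbered as in the labels. Endothelial and adipocyte sums are lower in all SPOP_CKI libraries, the latter sum resting mostly on Lipe and Cidea, and macrophage sums are high in SPOP_CKI 2 and 4 (12800 and 17200).

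**Figure D5:**
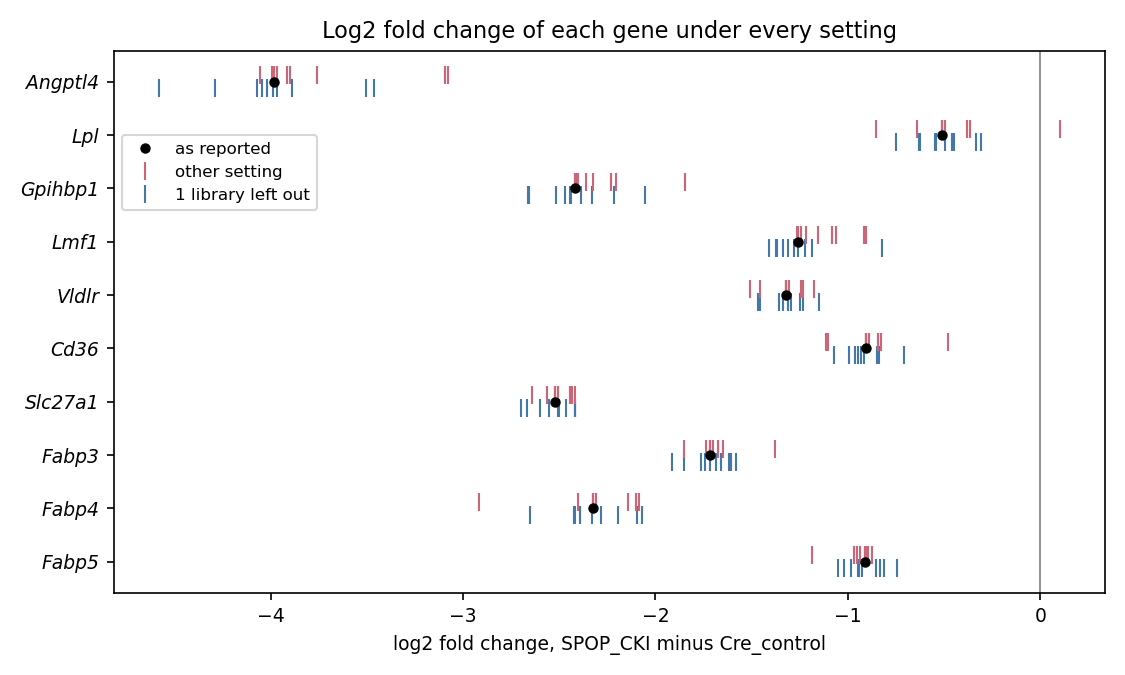
Log2 fold change of each of the 10 genes as reported (black), under each other setting (red ticks) and with 1 library left out (blue ticks). The tick right of 0 is Lpl after quantile normalization (0.10), and the values of Slc27a1 stay between −2.70 and −2.42.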

How the data were processed

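Poly(A) RNA of 10 mouse hearts was grouped by the titles and genotypes in the labels. Per the submitters' processing notes, the tools were featureCounts 1.5.0-p3 and DESeq2 1.20.0, and the build was mm10. Aligner, annotation release and strand setting: not given in the sources used here. Deposited signal values ("scaled reads") are each gene's reads over its library's size factor, and 100% of values came out as whole reads (tolerance 0.001). The authors also deposited group means, a log2 fold change and p-values.

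The test was limma 3.58.1 (R 4.3.3, intensity trend, robust variances) on log2(value + 1), two-sided, over genes reaching 10 scaled reads in 5 or more libraries, Benjamini-Hochberg adjusted at 0.05. Folds were converted from this log2 difference. The pseudocount shrinks those of low genes, and where libraries spread widely they can exceed the ratio of the group means. The method was tested on simulated data of 14122 genes. It called 20.4% of 98 genes given a log2 change of 1 in either direction, and 72.3% of 94 given a change of 2. False calls numbered 3, beside 88 true calls. A gene that did not pass can therefore still differ by a log2 change of 1 or more. Alternatives were edgeR 4.0.16 (quasi-likelihood) and DESeq2 1.42.0 on recovered reads, TMM and quantile scaling, other pseudocounts, no filter, array weights, a replicate block and libraries left out. DESeq2 without its Cook's distance filter was added after the data were seen.

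The members and gene lists were chosen with earlier results of these data known. Named genes are the members, Spop, the 3 called genes of each pathway list with the largest change, the 5 genes most like Angptl4 or Lpl, and the 2 most abundant markers of each cell type. Any further gene, marked so or not, was picked with its values in view. A few genes of the pathway lists are not reported here. Principal transcript lengths and shared sequence windows came from GENCODE M21 (GRCm38). Libraries of a group differed by more than sampling noise in every pair (chi-square per degree of freedom at least 13.4). Since the labels name only repeats, the p-values reflect variation among these libraries, part of which may be technical.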

Additional observations from a re-analysis of the deposited data

Results flagged for a closer look

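In the 20 sets of 5 libraries (10 genes in 2 groups), 1 library stood apart by Dixon's criterion at the 95% level, and chance gives about 1 in 20. Gpihbp1 in Cre_control 4 was at 5055 scaled reads, while the nearest control was at 2740, a gap of 0.815 of the whole range against a critical value of 0.71. The same library had the highest summed endothelial markers of the controls (13600 scaled reads per kilobase).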

How the results depend on the processing

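The 9 members called lower stayed between 6 and 9 with 1 library left out, reaching 6 without Cre_control 2, and 0 were called higher in each such fit. All 21 other settings gave a negative fold change for every member except quantile normalization for Lpl (0.10 on the log2 scale). Over all genes, 3168 calls became 1935 to 4381 with 1 library left out and 5320 with array weights. Quantile normalization moved the median log2 fold change of all genes from −0.11 to 0.03; the call of Cd36 was lost and the sign of Lpl turned under it. Without the 3 libraries with Xist reads, 9 members were lower and 4225 genes were called. The replicate block gave 2946 calls and the same number of members, 9, lower, and Hif1a and Pcsk5 were not called under it (adjusted p = 0.0549 and 0.059, limma). Deviations of libraries with the same number correlated at 0.0265 to 0.159, all positive but low. Correlations of all controls with all SPOP_CKI libraries ran from −0.237 to 0.159. Of the 5 controls, 2 correlated best with the SPOP_CKI library of their own number. The labels state no pairing, so the main test did not take the numbers as pairs, and these values do not settle whether they are. DESeq2 without its Cook's distance filter called 4051 genes, against 4032 with it. Precision is limited by 5 libraries per group. Among named genes that did not pass the test, the sign turned for Meox2 (array weights −0.12, without the 3 libraries with Xist reads −0.15, single libraries left out −0.0819 to 0.11), Ppara (edgeR 0.0787, DESeq2 with and without the Cook's filter 0.0618, single libraries left out −0.48 to 0.17), Hilpda (−0.58 to 0.00837) and Lyz2 (−0.0427 to 0.78), the last 2 with single libraries left out; the cause was not tested.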
